A study of Mus musculus with 12 samples.

Results

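The genes described here are 9 that govern how hepatocytes load, export and recover lipoprotein lipid: the apolipoprotein genes Apoa1, Apoa4, Apoa5, Apob, Apoc3 and Apoe, the lipid transfer gene Mttp, and the lipase genes Angptl4 and Lpl. They were chosen by gene symbol, as 9 of the 22471 features in the deposited expression tables, and all 9 passed the filter on low counts in every comparison. RNA sequencing covered 12 libraries of primary cultured hepatocytes from young male C57BL/6J mice, isolated by collagenase perfusion, which the labels give only as liver. The 4 groups of 3 libraries each were untreated hepatocytes (Con), hepatocytes given oleic acid bound to albumin as a model of steatosis (ConOA), hepatocytes given the uricosuric drug benzbromarone (BBR), and hepatocytes given both (BBROA). The study asked how the drug adds to lipid accumulation in fat-loaded hepatocytes. The labels do not say whether the numbered libraries of a group came from separate mice or separate wells, so the p-values measure only the spread between these libraries.

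Triglyceride-rich lipoproteins leave the hepatocyte as particles built around apolipoprotein B, which microsomal triglyceride transfer protein (Mttp) loads with lipid in the endoplasmic reticulum. In the circulation lipoprotein lipase (Lpl) hydrolyses their triglyceride, with apolipoprotein A-V acting for the enzyme and apolipoprotein C-III and angiopoietin-like 4 acting against it, while apolipoprotein E carries remnants to receptors on the hepatocyte. Apolipoproteins A-I and A-IV are proteins of high-density and triglyceride-rich particles.

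Apoa1, Apoc3, Apoa4 and Apoa5 lie next to each other within 43340 bp of chromosome 9 (build GRCm38, called mm10 in the submitters' processing notes). In the GENCODE annotation of that build Apoa1 (ENSMUSG00000032083) occupies chr9:46228580-46230466 on the plus strand, Apoc3 (ENSMUSG00000032081) chr9:46232933-46235636 on the minus strand, Apoa4 (ENSMUSG00000032080) chr9:46240696-46243459 on the plus strand and Apoa5 (ENSMUSG00000032079) chr9:46268633-46271919 on the plus strand. The gap between Apoa4 and Apoa5 is 25173 bp, against 2466 bp between Apoa1 and Apoc3 and 5059 bp between Apoc3 and Apoa4. The annotation places Gm47528 and Gm10680 on the opposite strand over Apoa4 and Gm47544 on the opposite strand over Apoa5, and because the counting is not stated to use strand, reads from these transcripts could not be told from those of Apoa4 and Apoa5. Outside this cluster Apob (ENSMUSG00000020609) is at chr12:7977648-8016835, Apoe (ENSMUSG00000002985) at chr7:19696109-19699188, Mttp (ENSMUSG00000028158) at chr3:138089854-138144968, Angptl4 (ENSMUSG00000002289) at chr17:33773750-33781830 and Lpl (ENSMUSG00000015568) at chr8:68880491-68907448. Mttp overlaps Trmt10a at its 5′ end and holds the antisense gene Gm43691 within it, both on the other strand. The same limit of strand therefore applies to Mttp.

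The 250 bases before the RefSeq start of 3 cluster genes are shown because Apoa1 and Apoa4 moved one way with oleic acid and Apoa5, their neighbour, the other way. Capitals mark matches to the forkhead-like motif TGTTTGC and to the TATA motif TATAAA, each searched on both strands, and each sequence is given 5′ to 3′ on the gene's strand from the RefSeq table of GRCm38.p6.
Apoa1, chr9:46228380-46228629, plus strand: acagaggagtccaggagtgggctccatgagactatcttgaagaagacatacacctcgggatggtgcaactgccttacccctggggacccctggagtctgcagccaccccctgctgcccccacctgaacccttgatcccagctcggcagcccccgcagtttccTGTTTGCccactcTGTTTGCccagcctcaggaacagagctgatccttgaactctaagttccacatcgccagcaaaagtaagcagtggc
Apoa4, chr9:46240594-46240843, plus strand: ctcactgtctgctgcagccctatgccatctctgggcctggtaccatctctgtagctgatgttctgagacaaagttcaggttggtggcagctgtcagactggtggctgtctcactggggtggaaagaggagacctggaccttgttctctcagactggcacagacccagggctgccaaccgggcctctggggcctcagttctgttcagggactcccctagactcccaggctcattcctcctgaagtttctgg
Apoa5, chr9:46268358-46268607, plus strand: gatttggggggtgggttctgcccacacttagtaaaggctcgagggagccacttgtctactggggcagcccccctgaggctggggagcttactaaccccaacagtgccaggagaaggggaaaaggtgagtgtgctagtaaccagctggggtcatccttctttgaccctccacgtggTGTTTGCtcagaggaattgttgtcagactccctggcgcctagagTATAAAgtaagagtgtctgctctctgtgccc
Apoa1 held TGTTTGC at -88 and -75 from its start, Apoa5 held it at -75 with TATAAA at -31, and neither motif was present in this window of Apoa4. A second RefSeq start of Apoa5, at 46268633, puts the same matches at -100 and -56. Outside the cluster, Apob held TGTTTGC on the other strand at -121 and TATAAA at -60, and a window of Apoe held TATAAA at -96. All 250 bases of that Apoe window, before a RefSeq start at 19698621, lie inside the gene as GENCODE annotates it. The same holds for a further Apoe window and for the Mttp window. For the windows shown, RefSeq and GENCODE place the starts differently, so that 148 bases of the Apoa4 window and 50 of the Apoa1 window lie inside the gene as GENCODE annotates it, and 0 of the Apoa5 window. TGTTTGC was found in 4.3% and TATAAA in 12.4% of all 32851 promoter windows of this length. The direct repeat bound by nuclear receptor pairs such as PPAR with RXR was searched as AGGNCANAGGNCA on both strands. It was found in 0.338% of those windows and in none of the 9 windows that the table holds for 6 of the genes described. Apoc3, Angptl4 and Lpl have no window there and were not searched. Since so few windows hold this repeat, its absence from 9 says little. These are letter matches only, and no binding was measured here.

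Per unit of transcript length, on the scale of the deposited FPKM (fragments per kilobase of transcript, scaled to library size), Apoe was the most abundant of the 9 transcripts in control hepatocytes, at 3390.2 ± 81.9 FPKM (SD, n = 3). Apoa1 followed at 1003 ± 24.4, Apoa4 at 779 ± 99.6, Apoc3 at 699 ± 19.9, Apob at 197 ± 13.8 and Apoa5 at 127 ± 6.12 FPKM. The transcripts of Mttp, at 45.1 ± 2.89, and Angptl4, at 27.8 ± 2.48 FPKM, were lower again, and Lpl was the lowest at 2.26 ± 0.0929 FPKM. Together the 9 genes took 1.05 ± 0.0217% of all counts in Con, 1.20 ± 0.0357% in ConOA, 1.04 ± 0.0274% in BBR and 1.28 ± 0.0204% in BBROA.

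Libraries held 15485508 to 23668379 estimated counts, so that 1 count was worth 0.0423 to 0.0646 CPM (counts scaled to a common library total), and all 9 genes rested on at least 129 counts in each library. The summed level of 9 hepatocyte markers ran from 47668 to 53928 CPM over the 12 libraries, with no marker at 0. Alb made up most of it, at 28106 CPM in Con, 32104 in ConOA, 29614 in BBR and 33172 in BBROA. Single markers moved both ways. Of the 9, 2 were called higher and 4 lower with benzbromarone alone, and 4 higher and 2 lower with oleic acid alone. Of all tested genes, 13.2% were called higher and 14.5% lower with benzbromarone alone, and 21.3% and 21.5% with oleic acid alone. Fgb went from 2148 CPM in Con to 1216 in BBR, and Tat from 7.71 CPM in Con to 16.0 in ConOA. The 12 Kupffer cell markers summed to 117 ± 8.72 CPM in Con, 124 ± 6.30 in ConOA, 168 ± 21.4 in BBR and 126 ± 3.15 in BBROA (n = 3 each), with 1 to 3 of the 12 under 1 CPM per group. Most of that sum was Cd68, at 80.1 CPM in Con, 78.1 in ConOA and 131 in BBR. With oleic acid alone 3 of the 11 Kupffer markers tested were higher and 6 lower (all genes 21.3% and 21.5%). Marco went from 1.20 to 6.89, Lyz2 from 3.55 to 11.2 and Adgre1 from 2.40 to 6.36 CPM, while Clec4f went from 1.11 to 0.442, Vsig4 from 1.15 to 0.505 and Cd5l from 5.98 to 2.87 CPM. The 9 endothelial markers summed to 71.6 to 90.3 CPM, the 9 stellate and fibroblast markers to 26.3 to 33.0 CPM, and the 5 adipocyte markers to at most 0.396 CPM, with 2 to 4 of the 5 at 0 in a whole group. The 6 biliary markers summed to 671 ± 66.3 CPM in Con, 277 ± 17.6 in ConOA, 420 ± 14.9 in BBR and 234 ± 19.8 in BBROA. Most of that sum was Spp1, at 613 CPM in Con and 204 CPM in ConOA, while Krt19 stood at 6.91 and 8.05 CPM. With benzbromarone alone 3 of the 5 biliary markers tested were higher and 2 lower (all genes 13.2% and 14.5%). Krt19 rose to 11.2 CPM, Epcam from 1.86 to 3.53 and Sox9 from 32.3 to 48.8 CPM, and Spp1 fell to 343 CPM. The part of these other cell types in the results was not tested, and in bulk RNA fewer cells of a type and less RNA per cell cannot be told apart.

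**Figure D1:**
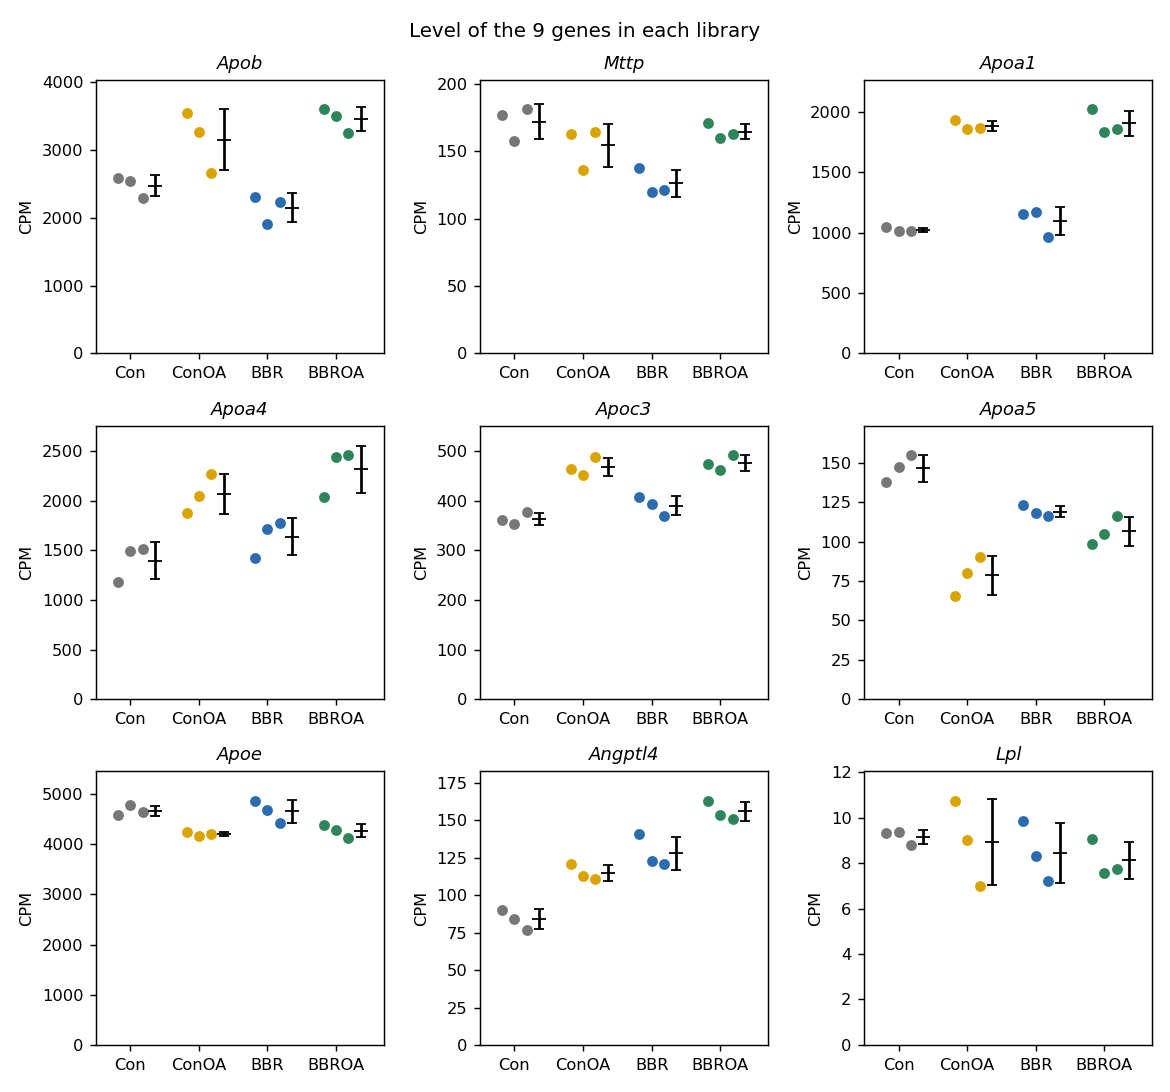
Level of each gene in the 12 libraries, in CPM after scaling by the trimmed mean of M values, on linear axes that start at 0. Points are libraries in order of replicate number and the black bars are the mean ± SD of 3 libraries. Apoa1, Apoa4, Apob and Apoc3 were higher in both groups given oleic acid, Apoa5 was lowest in ConOA, and Angptl4 was lowest in Con and highest in BBROA.

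Oleic acid changed more of these genes than benzbromarone did by count, as it did over all genes, and no gene of the 9 reached a 2-fold change in any comparison. With oleic acid alone (ConOA against Con), 5 of 9 genes were called higher (Apoa1, Apoa4, Apob, Apoc3 and Angptl4) and 2 lower (Apoa5 and Apoe) at an adjusted p under 0.05 by edgeR's quasi-likelihood test, against a background of 21.3% of 12418 tested genes called higher and 21.5% called lower. In cells that also had benzbromarone (BBROA against BBR), 6 were called higher (Apoa1, Apoa4, Apob, Apoc3, Mttp and Angptl4) and 1 lower (Apoa5), with backgrounds of 20.1% and 18.8% of 12416 genes. The median log2 fold change of the 9 genes was 0.36 and 0.29 in these comparisons, and that of all tested genes was -0.0060 and -0.0061. Upper quartile scaling moved the share of all called genes that were higher from 49.8% to 39.2% for oleic acid alone and from 51.7% to 40.8% with benzbromarone present.

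With benzbromarone alone (BBR against Con), 1 gene was called higher (Angptl4) and 3 lower (Mttp, Apoa5 and Apob), against 13.2% and 14.5% of 12555 genes. In oleic acid-loaded cells (BBROA against ConOA), 2 were called higher (Angptl4 and Apoa5) and none lower, against 1.95% and 2.63% of 12278 genes. With the replicate number as a block, which pairs the libraries in this comparison, 1333 of all genes were called in place of 563. The median log2 fold change of the 9 genes was 0.0058 without and 0.088 with oleic acid, and that of all tested genes was -0.00085 and -0.00031. ConOA is the control of the second comparison and the treated group of the oleic acid comparison, so these comparisons share libraries.

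**Figure D2:**
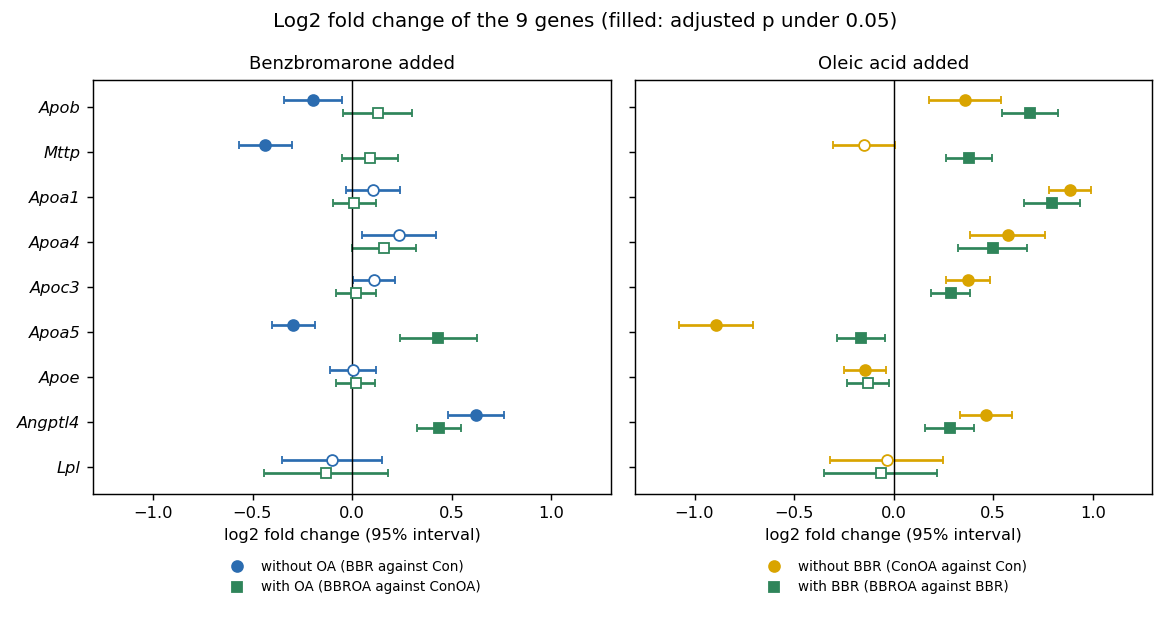
Log2 fold change of the 9 genes with its 95% interval, for benzbromarone added without and with oleic acid (left) and for oleic acid added without and with benzbromarone (right), 3 libraries per group. Filled symbols passed an adjusted p under 0.05. Apoa5 lay at -0.29 for benzbromarone without oleic acid and at 0.43 with it, and Angptl4 was above 0 in all 4 comparisons.

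Apob, the structural protein of very-low-density lipoprotein, was raised by oleic acid. Its level was 2579, 2536 and 2291 CPM in the Con libraries, 3538, 3263 and 2658 CPM in ConOA, 2305, 1901 and 2226 CPM in BBR, and 3602, 3502 and 3256 CPM in BBROA. Both groups given oleic acid lay above both groups without it, and the third ConOA library was the lowest of the 6 with oleic acid. The log2 fold change of Apob with oleic acid (± SE) was 0.36 ± 0.084 at an adjusted p of 0.00331 in untreated cells and 0.69 ± 0.065 at an adjusted p of 1.6e-06 in the presence of benzbromarone. Benzbromarone alone lowered Apob by a log2 fold change of -0.20 ± 0.069 (adjusted p = 0.0443), although the ranges of Con and BBR overlapped. That call was lost without the first or the second Con library or the second or the third BBR library (adjusted p = 0.145, 0.133, 0.237 and 0.0572, in that order) and in the fit to all 12 libraries (adjusted p = 0.0855). In oleic acid-loaded cells the change with benzbromarone was 0.13, with a 95% interval of -0.045 to 0.30.

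Mttp, whose product transfers triglyceride to nascent apolipoprotein B, was lowest in BBR. Its level was 177, 158 and 182 CPM in Con, 163, 136 and 165 CPM in ConOA, 138, 120.2 and 121 CPM in BBR, and 171, 160.2 and 163 CPM in BBROA. Every BBR library was below every Con and every BBROA library, while BBROA lay within the range of Con. Benzbromarone alone lowered Mttp by a log2 fold change of -0.44 ± 0.062 (adjusted p = 6.75e-05), which is a fold of 0.739. With oleic acid present the drug gave 0.088 (95% interval -0.052 to 0.23, adjusted p = 0.516). Oleic acid alone gave -0.15 ± 0.073 (adjusted p = 0.119), and with the replicate number as a block -0.15 at an adjusted p of 0.000338, with all 3 same-numbered pairs lower. It was also called with upper quartile scaling (adjusted p = 0.0478), with no scaling factor (0.0488) and without the third ConOA library (0.0382). In benzbromarone-treated cells oleic acid raised Mttp by 0.38 ± 0.054 (adjusted p = 7.49e-05).

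Apoa1, which encodes the main protein of high-density lipoprotein, rose with oleic acid both without and with benzbromarone. Its level was 1044, 1016 and 1016 CPM in Con, 1935, 1859.9 and 1867 CPM in ConOA, 1154, 1172 and 968 CPM in BBR, and 2025, 1833 and 1863 CPM in BBROA. The lowest library with oleic acid was well above the highest without it. The log2 fold change with oleic acid was 0.89 ± 0.049 (adjusted p = 8.92e-09, a fold of 1.85) in untreated cells and 0.80 ± 0.066 (adjusted p = 4.21e-07) in benzbromarone-treated cells. Benzbromarone gave 0.11 (95% interval -0.029 to 0.24) without oleic acid and 0.012 (-0.095 to 0.12) with it, and neither passed the test. Without the third BBR library, the only one of that group below Con, the first of these was 0.19 (adjusted p = 0.0206).

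Apoa4, a component of triglyceride-rich particles, rose with oleic acid and was higher with benzbromarone in all 3 same-numbered pairs of both benzbromarone comparisons. Its level was 1179, 1495 and 1518 CPM in Con, 1877, 2049.7 and 2274 CPM in ConOA, 1426, 1717 and 1775 CPM in BBR, and 2040.0, 2443 and 2462 CPM in BBROA. Library 1 was the lowest of each group, so the groups compared for benzbromarone overlapped although every pair moved in one direction. Oleic acid raised Apoa4 by 0.57 ± 0.088 (adjusted p = 0.000128) alone and by 0.50 ± 0.081 (adjusted p = 0.000216) with benzbromarone. Benzbromarone gave 0.24 ± 0.088 (adjusted p = 0.0548) without oleic acid, and with the replicate number as a block 0.24 at an adjusted p of 7.64e-05. In oleic acid-loaded cells it gave 0.16 ± 0.076 (adjusted p = 0.266), and with the block 0.16 at an adjusted p of 0.0103. The call in benzbromarone alone was therefore made with the block, and also without the third Con library (adjusted p = 0.036), without the first BBR library (adjusted p = 0.00686) and without the filter on low counts (adjusted p = 0.00445).

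Apoc3, whose product slows triglyceride clearance, rose with oleic acid alone by 0.37 ± 0.051 (adjusted p = 4.48e-05) and with benzbromarone present by 0.29 ± 0.046 (adjusted p = 0.000203). Its level was 361, 353 and 377 CPM in Con, 464, 453 and 489.6 CPM in ConOA, 407, 395 and 369.7 CPM in BBR, and 474, 463 and 493 CPM in BBROA. The libraries with oleic acid were all above those without it. Benzbromarone gave 0.11 (95% interval 0.0043 to 0.22, adjusted p = 0.116) without and 0.020 (-0.082 to 0.12) with oleic acid.

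Apoa5, the cluster gene farthest from the others, whose product favours lipoprotein lipase, was the one member of the cluster that fell with oleic acid. Its level was 138, 147 and 155 CPM in Con, 65.7, 79.9 and 90.3 CPM in ConOA, 123, 118 and 116 CPM in BBR, and 98.4, 105 and 116 CPM in BBROA. Con was the highest group and ConOA the lowest with no overlap, and the highest BBROA library reached the lowest of BBR. Oleic acid alone lowered Apoa5 by -0.89 ± 0.086 on the log2 scale (adjusted p = 1.61e-06, a fold of 0.539). In benzbromarone-treated cells the fall was -0.16 ± 0.056 (adjusted p = 0.0315), and it was lost without the first or the second BBR library or the first or the second BBROA library (adjusted p = 0.101, 0.0573, 0.147 and 0.0945), in the fit to all 12 libraries (0.131) and on the FPKM scale (0.156).

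Benzbromarone moved Apoa5 in opposite directions in the 2 settings. Without oleic acid it fell by -0.29 ± 0.051 (adjusted p = 0.000379), lower in 3 of 3 same-numbered pairs, and with oleic acid it rose by 0.43 ± 0.090 (adjusted p = 0.0142), higher in 3 of 3 pairs. The rise was lost without the second ConOA, the second BBROA or the third BBROA library (adjusted p = 0.0669, 0.0606 and 0.0965) and on the FPKM scale, where it was 0.33 (adjusted p = 0.0972). On that scale, the length that the deposited counts and FPKM imply for Apoa5 ran from 0.962 to 1.25 kb between libraries, against 1.03 kb in every library for Apoa1, and the part of this in the Apoa5 result was not tested.

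Angptl4, an inhibitor of lipoprotein lipase, rose in all 4 comparisons. Its level was 90.3, 84.5 and 76.9 CPM in Con, 121, 113 and 111 CPM in ConOA, 141, 123 and 121 CPM in BBR, and 163, 154 and 151 CPM in BBROA. Con was the lowest group and BBROA the highest, with no overlap with the groups between them, which overlapped each other. Benzbromarone raised it by 0.62 ± 0.066 (adjusted p = 3.2e-06, a fold of 1.54) without oleic acid and by 0.44 ± 0.052 (adjusted p = 0.000204) with it. Oleic acid raised it by 0.46 ± 0.061 (adjusted p = 3.32e-05) alone and by 0.28 ± 0.057 (adjusted p = 0.00133) with benzbromarone.

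Lpl itself was scarce and was called in no comparison. Its level was 9.33, 9.35 and 8.80 CPM in Con, 10.8, 9.04 and 6.995 CPM in ConOA, 9.85, 8.30 and 7.21 CPM in BBR, and 9.06, 7.55 and 7.74 CPM in BBROA, from 129 to 214 counts per library. The groups overlapped, and the widest 95% interval of the 4 comparisons was -0.44 to 0.18 (benzbromarone in oleic acid-loaded cells). Adipocytes and macrophages, which are known to express Lpl, are represented by the marker sums given above, and their part in the Lpl level was not tested.

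Apoe, the ligand for remnant uptake and the most abundant of these transcripts, was slightly lower with oleic acid. Its level was 4576, 4782 and 4633 CPM in Con, 4249, 4165 and 4200.3 CPM in ConOA, 4869, 4690.2 and 4418 CPM in BBR, and 4386, 4287 and 4127 CPM in BBROA. Each group given oleic acid lay below its own control without overlap. Apoe fell by -0.14 ± 0.050 (adjusted p = 0.0319, a fold of 0.906) with oleic acid alone, and this call was lost when any 1 of the 6 libraries was left out (adjusted p = 0.0503 to 0.109). In benzbromarone-treated cells it was -0.13 ± 0.049 (adjusted p = 0.0517). This change stayed uncalled in 6 of 14 alternatives and passed the test in the others, with DESeq2 at an adjusted p of 0.0285. Benzbromarone gave 0.0058 (95% interval -0.11 to 0.12) without and 0.018 (-0.079 to 0.12) with oleic acid.

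The combined treatment was also set against untreated cells (BBROA against Con). Apoa1, Apoa4, Apob, Apoc3 and Angptl4 were called higher and Apoa5 and Apoe lower, 5 and 2 of 9, where 21.6% of 12471 genes were called higher and 22.2% lower. The largest of these changes were those of Angptl4 and Apoa1, each with a log2 fold change of 0.90 and 0.89 (SE 0.055 and 0.049), followed by Apoa4 at 0.73 ± 0.084. Apob was 0.48 ± 0.056 and Apoc3 0.39 ± 0.045. Apoa5 stood at -0.47 ± 0.058 (adjusted p = 5.87e-06), and Apoe at -0.13 ± 0.048 (adjusted p = 0.0351). The Apoe call was lost on the FPKM scale (adjusted p = 0.0506) and without the second Con, the second BBROA or the third BBROA library (adjusted p = 0.127, 0.108 and 0.148). For Mttp the difference was -0.066 (95% interval -0.18 to 0.046).

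The difference between the benzbromarone effects with and without oleic acid was tested as an interaction over all 12 libraries. It was called for 2 of 9 genes, both in the direction of a higher value with oleic acid, where 6.87% of 12742 genes were called in that direction and 5.31% in the other. Apoa5 had an interaction of 0.74 ± 0.12 on the log2 scale (adjusted p = 0.000357) and Mttp one of 0.53 ± 0.10 (adjusted p = 0.00161). Apob was at 0.33 ± 0.12 (adjusted p = 0.0794), which passed the test without the low count filter (0.0123), without the first ConOA library (0.0215) and without the first BBR library (0.0493), and Angptl4 at -0.17 ± 0.090 (adjusted p = 0.242). With the replicate number as a block both passed (adjusted p = 0.00595 for Apob and 0.0379 for Angptl4), so that 4 of 9 were called. This block spans BBR and BBROA too, between which the numbers were not taken to pair libraries. The interaction calls over all genes also varied, from 1551 in the main fit to as many as 2265 under the alternatives. For Apoa1, Apoa4, Apoc3 and Apoe the 95% intervals of the interaction were -0.26 to 0.095, -0.36 to 0.22, -0.22 to 0.063 and -0.11 to 0.16.

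**Figure D3:**
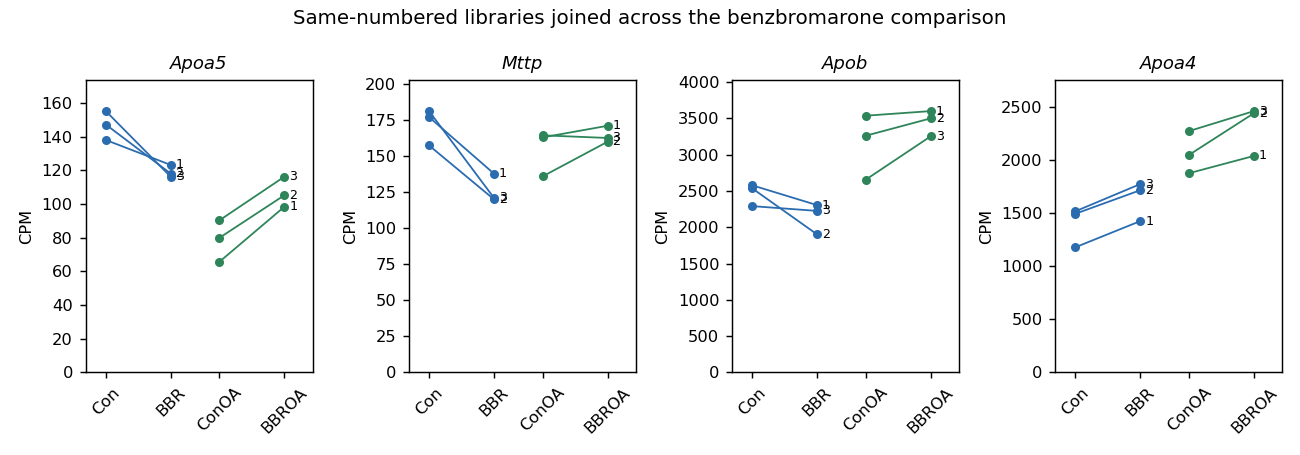
CPM of Apoa5, Mttp, Apob and Apoa4 in the libraries of the benzbromarone comparisons, on linear axes that start at 0, with same-numbered libraries joined and each line numbered at its right end. Apoa5 and Mttp fell in all 3 pairs without oleic acid, Apoa5 rose in all 3 pairs with it, and Apoa4 rose in all 3 pairs of both comparisons with library 1 lowest each time.

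Other genes of the pathway were taken from 6 lists, and the genes named are those with the largest changes among the called. The counts are given with the share of all tested genes called higher and lower in the same comparison. For benzbromarone in oleic acid-loaded cells, the replicate block raised the number called from 1 to 2 among other apolipoproteins, from 2 to 4 in assembly and secretion, from 2 to 5 in lipase control, from 0 to 5 among receptors and from 2 to 4 among regulators. Over all 12278 tested genes the same block raised it from 563 to 1333, so the list counts rose along with the count over all genes. Among 9 tested genes for other apolipoproteins, oleic acid alone raised 2 and lowered 2, against 21.3% and 21.5% of all genes (median log2 fold change 0.033, all genes -0.0060). Apoc2, which encodes the activator of lipoprotein lipase, went from 23.3 ± 0.451 CPM in Con to 55.1 ± 6.04 CPM in ConOA (log2 fold change 1.25 ± 0.078, adjusted p = 2.59e-08) and from 19.0 ± 1.80 CPM in BBR to 51.4 ± 6.91 CPM in BBROA (1.44 ± 0.094). Apoc2 shares its locus with the annotated gene Gm44805, so that its counts are uncertain where the counting could split them. Clu, clusterin or apolipoprotein J, fell from 16027 to 8777 CPM (-0.86 ± 0.055, adjusted p = 3.03e-08). Benzbromarone alone raised none of the 9 and lowered 3 (all genes 13.2% and 14.5%), with Apon falling most (-1.17 ± 0.15, adjusted p = 2.36e-05), and in oleic acid-loaded cells 1, also Apon (-0.40 ± 0.099, adjusted p = 0.0352), a call lost under 8 of 14 alternatives.

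Of 14 tested genes for lipoprotein assembly and secretion, 5 rose and 1 fell with oleic acid alone, and 8 rose and 1 fell with oleic acid in benzbromarone-treated cells (all genes 21.3% and 21.5%, then 20.1% and 18.8%; median 0.021 and 0.21, all genes -0.0060 and -0.0061). Pla2g12b rose from 12.9 to 29.0 CPM (1.18 ± 0.077, adjusted p = 3.81e-08) and Tm6sf2 from 5.81 to 8.50 CPM (0.55 ± 0.15, adjusted p = 0.0078) with oleic acid alone, both of which encode proteins of particle lipidation, and Sort1, which encodes the sorting receptor sortilin, fell from 13.4 to 6.70 CPM (-0.99 ± 0.11, adjusted p = 5.2e-06). With benzbromarone alone 2 rose and 3 fell (all genes 13.2% and 14.5%). Among the latter were Smlr1 (-1.08 ± 0.18, adjusted p = 0.000247) and Tm6sf2 (-0.87 ± 0.21, adjusted p = 0.00472), which stood at only 2.72 and 3.11 CPM in BBR. In oleic acid-loaded cells 2 rose and none fell (all genes 1.95% and 2.63%). Those 2, Sort1 and Sec23a, lost their calls under 7 and 5 of 14 alternatives, both of them without the second ConOA, the second BBROA or the third BBROA library.

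Of 14 tested genes for lipase control and plasma remodelling, 2 rose and 7 fell with oleic acid alone (all genes 21.3% and 21.5%; median -0.20, all genes -0.0060). Angptl8, which encodes a partner of angiopoietin-like 3, fell from 38.2 to 18.3 CPM (-1.06 ± 0.18, adjusted p = 0.000239), and fell to 20.9 CPM with benzbromarone alone (-0.87 ± 0.16, adjusted p = 0.000843). Pnpla2, adipose triglyceride lipase, rose with benzbromarone without oleic acid (0.25 ± 0.052, adjusted p = 0.00199) and with it (0.32 ± 0.054, adjusted p = 0.00362), the first of which was lost on the FPKM scale. In benzbromarone-treated cells oleic acid raised 2 of the 14 and lowered 4 (all genes 20.1% and 18.8%), with Pltp, phospholipid transfer protein, falling from 8.42 to 4.94 CPM (-0.77 ± 0.14, adjusted p = 0.000532).

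Of 12 receptor and uptake genes, 3 rose and 6 fell with benzbromarone alone, 4 rose and 4 fell with oleic acid alone, and none was called with benzbromarone in oleic acid-loaded cells. Of all genes, 13.2% and 14.5% were called higher and lower in the first comparison, 21.3% and 21.5% in the second and 1.95% and 2.63% in the third. The median log2 fold change of the list was -0.12, -0.032 and -0.019 in these comparisons. Vldlr, the very-low-density lipoprotein receptor, stood at 37.3 ± 3.33 CPM in Con, 74.5 ± 6.997 in ConOA, 85.8 ± 11.6 in BBR and 82.3 ± 6.23 in BBROA, and rose by 1.20 ± 0.084 with benzbromarone alone (adjusted p = 5.21e-08) and by 1.002 ± 0.075 with oleic acid alone (adjusted p = 1.41e-07). Lrp1, a remnant receptor, fell from 421 to 245 CPM with oleic acid alone (-0.77 ± 0.080, adjusted p = 3.14e-06).

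**Figure D4:**
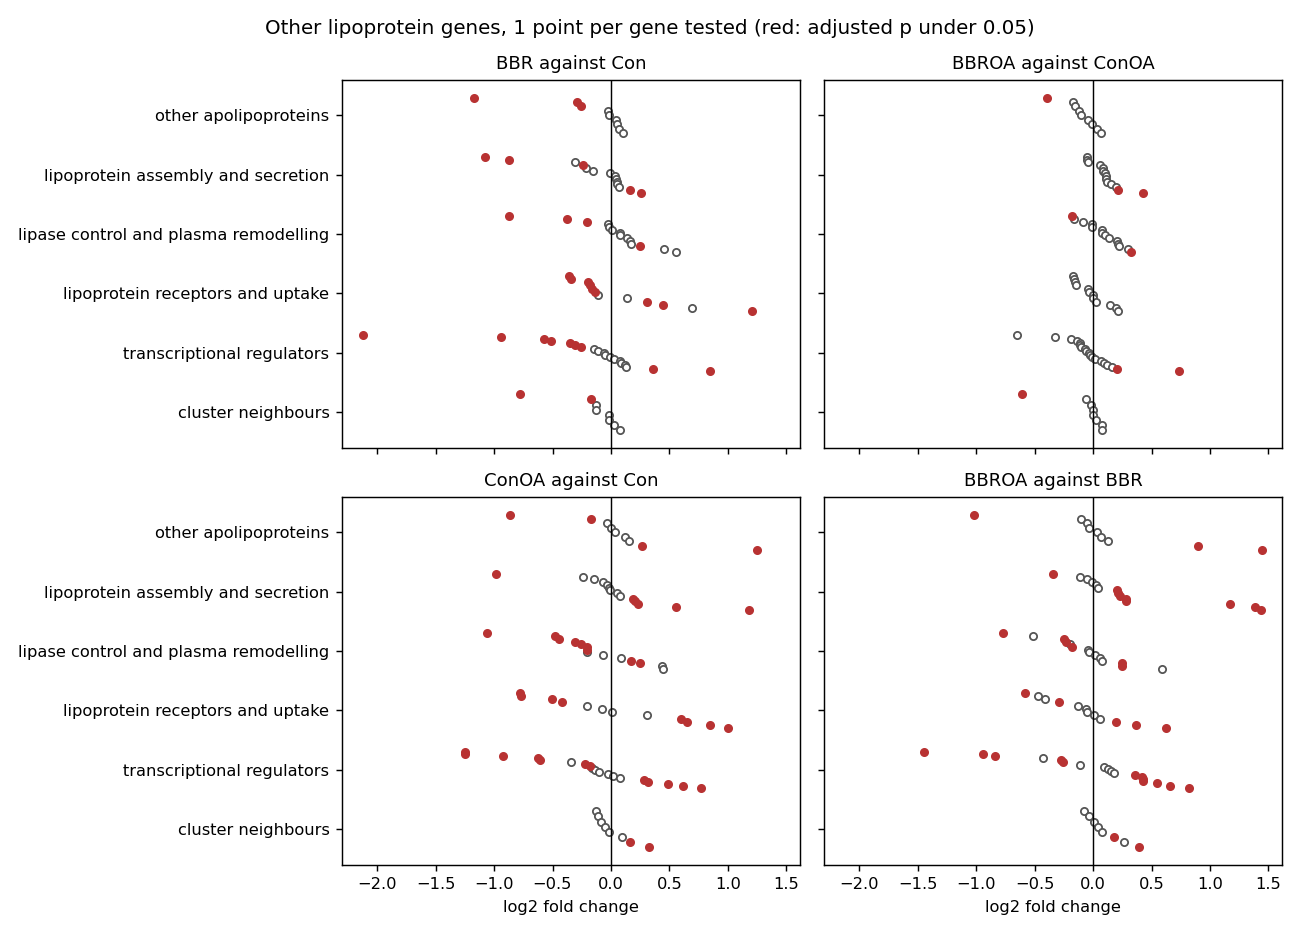
Log2 fold change of every tested gene of the 6 lists in 4 comparisons, 1 point per gene, red where the adjusted p was under 0.05. The lists are spread on both sides of 0, and fewer genes passed the test for benzbromarone in oleic acid-loaded cells than in the other 3 comparisons, with none in the receptor list.

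Of 19 transcriptional regulators known to act on these genes, oleic acid alone raised 5 and lowered 7, and benzbromarone alone raised 2 and lowered 7, against 21.3% and 21.5%, then 13.2% and 14.5%, of all genes. The median log2 fold change was -0.14 and -0.057. Creb3l3, which encodes the hepatic factor CREB-H, was at 50.3 ± 1.81 CPM in Con, 85.4 ± 5.50 in ConOA, 90.4 ± 5.11 in BBR and 143 ± 5.18 in BBROA. It rose by 0.85 ± 0.054 with benzbromarone alone (adjusted p = 2.3e-08), by 0.74 ± 0.055 with benzbromarone in oleic acid-loaded cells (adjusted p = 2.53e-06) and by 1.499 ± 0.048 in the combined treatment against Con (adjusted p = 5.44e-13). Nr1h4, the bile acid receptor FXR, fell from 15.5 to 7.98 CPM with benzbromarone alone (-0.94 ± 0.093, adjusted p = 1.82e-06), and Nr0b2, its target SHP, fell from 1.98 to 0.451 CPM (-2.12 ± 0.31, adjusted p = 7.56e-05). Nr0b2 rested on 38 to 45 counts per Con library and only 5 to 11 per BBR library. With oleic acid alone Nr1d1, the clock repressor REV-ERBα, fell by -1.25 ± 0.11 (adjusted p = 6.85e-07) and Ppargc1a, a coactivator, by -0.92 ± 0.21 (adjusted p = 0.00291). Of 8 tested genes flanking the apolipoprotein clusters of chromosomes 9 and 7, oleic acid alone raised Tomm40, next to Apoe (0.33 ± 0.050, adjusted p = 0.000103), and Zpr1, next to Apoa5 (0.16 ± 0.052, adjusted p = 0.0219), which was lost under 6 of 14 alternatives. Benzbromarone alone lowered Tagln (-0.77 ± 0.15, adjusted p = 0.00114) and Nectin2 (-0.17 ± 0.045, adjusted p = 0.0091). With the replicate number as a block 4 of the 8 were called in each of these comparisons, in place of 2. Over all genes, oleic acid alone gave 5311 calls of 12418 tested, and up to 6628 calls under the alternatives. Benzbromarone alone gave 3484 of 12555, and up to 4153 under the alternatives.

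The genes whose log2 CPM followed each of the 9 most closely over the 12 libraries were taken from 8469 genes with a mean of at least 10 CPM. They are a description, since the 12 points share 4 treatments. For Apoa5 these were Slc44a3 (Pearson r = 0.966), Dpp4 (0.954) and Crot (0.952), for Mttp Slc25a47 (0.943) and Qprt (0.938), and for Angptl4 Lpcat3 (0.971), Acot2 (0.969) and Cidec (0.968). For Apoa1 they were Serpina3k (0.991), Eif3j2 (0.991) and Tpm4 (0.988), for Apoa4 Grk2 (0.973), Trim41 (0.964) and Atp6v0e (0.962), and for Apoc3 Hsp90aa1 (0.978), Gm10053 (0.978) and Cib1 (0.976). For Apob they were Sbno2 (0.979), Cluh (0.977) and Col4a2 (0.977), and for Apoe Gjb1 (0.936), Cldn2 (0.935) and Acox3 (0.931). Lpl had the lowest leading value, with Ptbp2 (0.868), Mfhas1 (0.841) and Gm4788 (0.831).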

How the data were processed

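Per the labels and methods, RNA of cultured hepatocytes was sequenced on an Illumina platform. For each library the authors deposited estimated counts per gene, some of them fractional, and FPKM. The build is given as mm10, while the aligner, the counter and the strand setting are not given in the sources used here. Here, counts were rounded, 560 features without an Ensembl ID (at most 1.03% of counts) were kept, and genes were filtered with filterByExpr (minimum count 10), scaled by the trimmed mean of M values (factors 0.983 to 1.02) and tested in edgeR 4.0.16 (R 4.3.3) with the quasi-likelihood F test, on the 6 libraries of each comparison or on all 12 for the interaction. P-values were adjusted by Benjamini-Hochberg over all genes tested, and 0.05 was the threshold. Errors are SD for levels and SE for log2 fold changes. CPM levels were scaled over 12 libraries. CPM depends on length, so levels of different genes were compared by FPKM.

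Alternatives were other scalings, DESeq2 1.42.0, no low count filter, a replicate block, limma 3.58.1 on log2(FPKM + 0.1), a pooled fit, a 2-fold minimum and leaving out each library. Deviations of same-numbered libraries from their group means correlated at over 0.1 in every pair of 4 of the 5 comparisons (lowest r = 0.117 in those), and not in BBROA against BBR (lowest r = 0.0442), so the number was taken to pair libraries in those 4. Differently numbered libraries of 2 groups ran from r = -0.345 to 0.166, with 2 of 36 pairs over 0.1. The lowest same-numbered values therefore lie within the range of differently numbered ones. No 2 libraries of a group agreed within counting noise. Ensembl IDs matched the GENCODE annotation of GRCm38 for 99.7%. The fits were tested on simulated counts, with the same relative spread set for every gene and no pairing of libraries. There a log2 change of 0.5 was recovered for 68% of the changed genes in the interaction. In the other comparisons it was recovered for 89% to 93%. The 9 genes and all lists were chosen with earlier results of these data known. From each list, up to 3 called genes with the largest absolute log2 fold change per comparison could be named, and for each of the 9 the 3 genes with the highest Pearson r. Some genes that these rules name are not reported here. The motifs, the single marker genes, Trmt10a and the overlapping transcripts were chosen after values were seen.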

Additional observations from a re-analysis of the deposited data

Results flagged for a closer look

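The benzbromarone effect differed with oleic acid, by the interaction test over 12 libraries, for 2 of the 9 genes. For Apoa5 the effect with oleic acid minus that without was 0.74 ± 0.12 on the log2 scale (SE, adjusted p = 0.000357), from -0.29 to 0.43. For Mttp it was 0.53 ± 0.10 (adjusted p = 0.00161), from -0.44 to 0.088.

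The same test called 1 of 9 other apolipoprotein genes, 3 of 14 assembly genes and 3 of 14 lipase genes, all higher with oleic acid, 2 higher and 3 lower of 12 receptor genes, and 8 higher and 1 lower of 19 regulators, where 6.87% of all genes were called higher and 5.31% lower. Some of those with the largest differences are given here, the difference first and the effects without and with oleic acid after it. Among assembly and apolipoprotein genes these were Apon at 0.79 (from -1.17 to -0.40), Smlr1 at 1.19 (from -1.08 to 0.11), Sort1 at 0.65 (from -0.21 to 0.43) and Cideb, a protein of very-low-density lipoprotein maturation, at 0.36 (from -0.24 to 0.11). Among lipase genes they were Angptl8 at 0.87 (from -0.87 to -0.012), Pcsk6 at 0.47 (from -0.38 to 0.078) and Lipa, lysosomal acid lipase, at 0.42 (from -0.20 to 0.20). Among the 3 lower receptor genes was Vldlr, at -1.05 (from 1.20 to 0.14). Among the 8 higher regulators were Nr0b2 at 1.48 (from -2.12 to -0.65) and Nr1h4 at 1.04 (from -0.94 to 0.092). For the genes given, adjusted p ran from 4.22e-05 for Vldlr to 0.0472 for Nr0b2. The Angptl8 and Nr0b2 differences were lost under 9 of 19 and 13 of 18 alternatives.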

How the results depend on the processing

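Of the count of called genes among the 9, 84 of 95 alternative values were within 1.5 times the main count, and the exceptions were as follows. A 2-fold minimum left 0 called in each of the 6 comparisons. On the FPKM scale 1 gene was called for BBROA against ConOA, and with the replicate block 4 were called in the interaction, Apob (adjusted p = 0.00595) and Angptl4 (adjusted p = 0.0379) being added. The block of the interaction also spans BBR and BBROA, between which the numbers were not taken to pair. Leaving out a library gave 1 to 2 called for BBROA against ConOA. Over all genes, BBROA against ConOA gave 563 calls, 1333 with the replicate block, 185 on the FPKM scale and 216 to 632 without a library. The interaction gave 1551 calls, 1027 to 1679 without a library and up to 2265 under the other alternatives. In BBROA against BBR, where the numbers were not taken to pair, the block called Apoe (-0.13, adjusted p = 0.00302). The block changed no other call among the 9 beyond those given beside them.

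Reversals of sign were limited to log2 fold changes of the 9 that were not called. Apoe for BBR against Con was -0.012 with no scaling factor, -0.021 on the FPKM scale and -0.0014 in the pooled fit, and Lpl in the interaction was 0.023 on the FPKM scale. Leaving out 1 library gave the following ranges, which cross 0. For BBR against Con, Apoe ran from -0.025 to 0.044 and Lpl from -0.23 to 0.0077. For BBROA against ConOA, Apoa1 ran from -0.034 to 0.040, Apoc3 from -0.0053 to 0.055, Apoe from -0.0028 to 0.045 and Lpl from -0.28 to 0.022. Lpl ran from -0.19 to 0.12 for ConOA against Con and from -0.17 to 0.074 for BBROA against BBR. In the interaction Apoa4 ran from -0.16 to 0.042, Apoe from -0.017 to 0.055 and Lpl from -0.17 to 0.13. The cause of these changes was not tested. Of 83 values of other named genes, 69 kept their call under every alternative, 14 lost it under at least 1 and none reversed. Of 534 alternative values of the list counts, 467 stayed within 1.5 times the main count and 67 did not, 39 of them for BBROA against ConOA and 22 for the interaction. For BBROA against ConOA the counts ran from 0 to 2 for other apolipoproteins, 0 to 4 for assembly, 1 to 5 for lipase control, 0 to 5 for receptors, 1 to 4 for regulators and 0 to 1 for cluster neighbours. At 129 to 214 counts, the depth limits what can be said of Lpl.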

Other observations

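The length that the deposited values imply for a gene, plain CPM divided by FPKM, was not the same in every library. It ran from 0.962 to 1.25 kb for Apoa5 and from 11.7 to 13.2 kb for Apob, a ratio of highest to lowest of 1.3 and 1.13, while for the other 7 genes the ratio was at most 1.02. The order of the 4 groups by mean FPKM was the same as by mean CPM for all 9 genes.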
